A study of Mus musculus with 16 samples.

Results

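The liver genes of fatty acid oxidation and ketone synthesis described here are 31 genes, taken by name from a table of read counts for 53714 genes. Of these, 19 encode proteins that act in mitochondria, 9 encode proteins of peroxisomes, and 3 (Eci2, Crat and Acsl1) encode proteins found in both or elsewhere. Each name matched 1 row of the table, and all 31 had enough reads to be among the 13905 genes tested.

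Polyadenylated RNA was sequenced from 16 liver samples of male mice aged 9 weeks, in 4 groups of 4 samples. The strain is given as C57BL/6 Slc25a47tm1c(EUCOMM)Hmgu for every mouse, so that controls (WT, genotype Slc25a47hep+/+) and knockouts (KO, Slc25a47hep-/-) are listed with the same conditional allele. The KO removes Slc25a47, a mitochondrial carrier protein of liver, in hepatocytes, and the Cre driver is not given in the sources used here. Mice of each genotype were sampled in the fed state on chow (fed WT, fed KO) or after an overnight fast (fasted WT, fasted KO), and the length of the fast in hours is not given either. The questions addressed are how fasting and loss of Slc25a47 change these transcripts, and whether mitochondrial and peroxisomal enzymes respond alike.

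Fatty acids are activated to acyl-CoA, carried into mitochondria as carnitine esters and shortened in repeated rounds of dehydrogenation, hydration, a further dehydrogenation and thiolysis. In liver the acetyl-CoA so formed feeds ketone synthesis, which supplies other organs during a fast. Peroxisomes run a parallel cycle with their own enzymes on very long, branched and dicarboxylic acids and pass the shortened products on to mitochondria. Many of the genes of both pathways are textbook targets of PPAR alpha, a nuclear receptor activated by fatty acids.

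Each library had 19.6 M to 27.3 M reads counted in genes. Levels are given as CPM, gene read counts over the TMM-scaled library size, which corrects for differences in library composition, with scaling factors of 0.903 to 0.966 for WT and of 1.0 to 1.14 for KO libraries. The Slc25a47 level was 636.5 ± 154 CPM (SD, n = 4) in fed WT, 126 ± 32.2 in fed KO, 949.5 ± 129 in fasted WT and 261 ± 77.2 in fasted KO, so that WT and KO did not overlap in either feeding state. The 10 hepatocyte markers together made up 105491 to 154923 CPM in every library. The 15 pancreatic acinar markers summed to 7.85 to 1813 CPM in fasted WT, against 4.74 to 78.8 in fasted KO and 7.57 to 32.1 in the fed groups. In 2 of the 4 fasted WT libraries, replicates 2 and 4, the sums were 1813 and 501 CPM, and 0 of the 15 markers were at 0. Fed KO replicate 3 also had 0 of the 15 at 0, but with a sum of 23.5 CPM. Each test that uses fasted WT was therefore also run without fasted WT replicates 2 and 4. In bulk tissue, fewer cells of a type and less RNA per cell cannot be told apart. Nothing in the labels says more of how the replicates were taken than that each is a liver sample, so p-values measure the spread between these samples.

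Fasting raised nearly all of these transcripts in WT liver. In fasted against fed WT, 28 of the 31 genes rose and 0 fell at an adjusted p under 0.05, against 16.2% of all genes tested called higher and 18.3% called lower (edgeR quasi-likelihood test, Benjamini-Hochberg adjustment over all genes tested). The 28 comprised 16 of the 19 mitochondrial genes, all 9 peroxisomal genes and all 3 in both or elsewhere. The median log2 fold change was 0.74 over the mitochondrial and 1.07 over the peroxisomal genes, beside -0.02 over all genes tested. Groups did not overlap for the same number, 28 of 31, against 32.8% of all genes. All of the 28 calls held under every alternative processing tried, with 1 library left out at a time included.

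**Figure D1:**
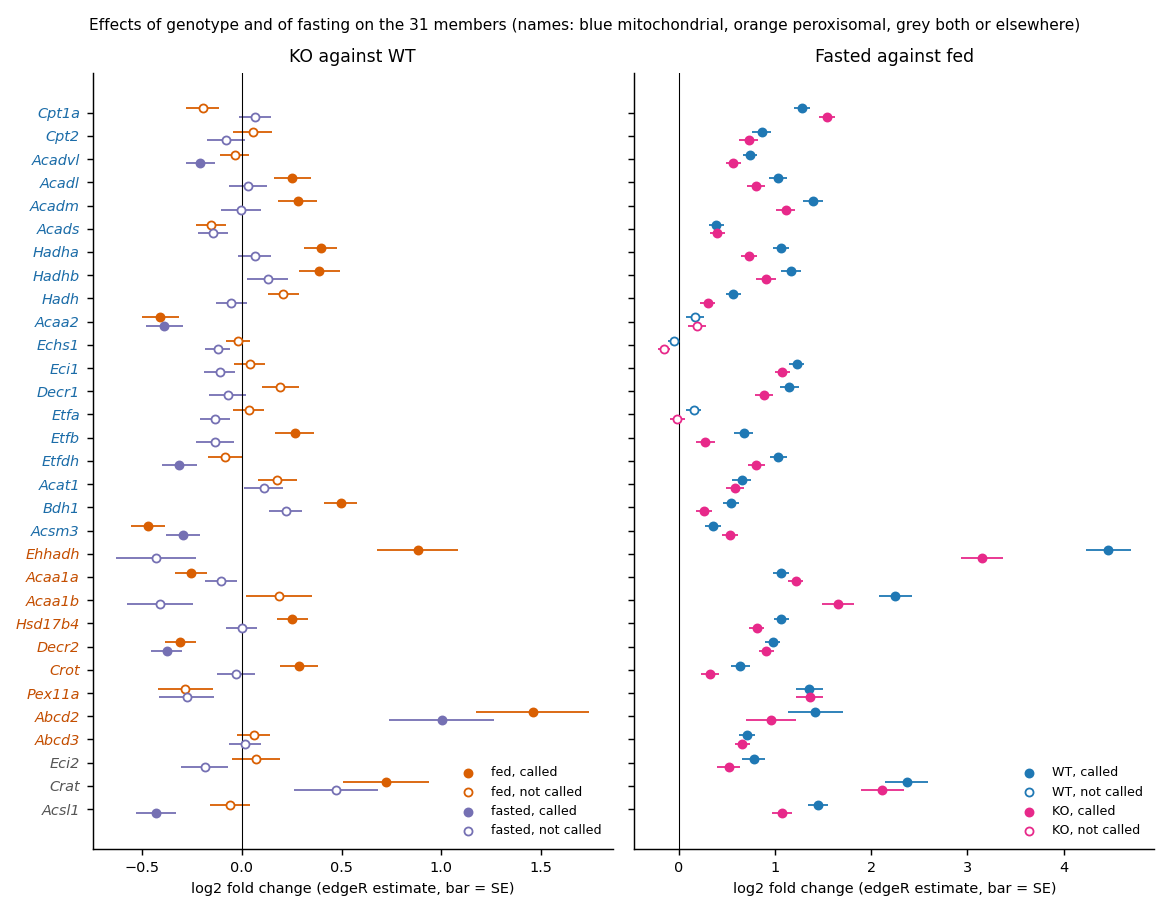
Log2 fold change of each of the 31 genes for KO against WT (left panel, fed and fasted) and fasted against fed (right panel, WT and KO), each panel with its own scale, bars for the standard error and filled points for genes that passed the test. In the right panel all 28 called genes lie right of 0, with Ehhadh farthest at 4.47 in WT, while the left panel has called genes on both sides.

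Entry of fatty acids into mitochondria depends on Cpt1a, the outer-membrane carnitine palmitoyltransferase that sets the rate of the pathway. Its level was 404, 453, 459 and 477 CPM in the 4 fed WT libraries and 1057, 1164, 1144 and 978 in the 4 fasted WT libraries. The KO libraries stood at 409, 346, 409 and 398 CPM fed and 1158, 1063, 1109 and 1215 fasted. Every fasted library was thus far above every fed one, and fasted WT and fasted KO overlapped. The log2 fold change with fasting was 1.28 ± 0.08 (SE; adjusted p = 2e-09) in WT and 1.54 ± 0.08 (adjusted p = 3.57e-10) in KO. Cpt2, which returns the acyl group to CoA inside the organelle, stood at 139, 139.6, 173 and 176 CPM in fed WT, 142, 172, 174 and 163 in fed KO, 242, 305, 298 and 298 in fasted WT and 283, 280.5, 263 and 254 in fasted KO, with genotypes overlapping in each state. It rose by 0.86 ± 0.10 (adjusted p = 1.37e-06) in WT and 0.73 ± 0.10 (adjusted p = 1.01e-05) in KO on the same scale.

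Fasting also raised Acadm, the medium-chain acyl-CoA dehydrogenase. Acadm stood at 236, 253, 294 and 299.97 CPM in fed WT and 636, 714, 783 and 713 in fasted WT. In KO liver it was 287, 301, 341 and 386 CPM fed and 745, 662, 713 and 719 fasted, so the fasted ranges of the genotypes overlapped. The fasting changes were 1.39 ± 0.10 (adjusted p = 6.66e-09) in WT and 1.11 ± 0.10 (adjusted p = 1.23e-07) in KO. Acadl, the long-chain dehydrogenase, stood at 159, 167, 184 and 174 CPM in fed WT, 168, 194, 201 and 253 in fed KO, 329.9, 356, 373 and 339 in fasted WT and 352, 357, 353 and 364 in fasted KO. Both dehydrogenases for longer chains rose with fasting, Acadl by 1.03 ± 0.10 in WT and 0.81 ± 0.09 in KO and Acadvl by 0.74 ± 0.07 and 0.57 ± 0.07, while short-chain Acads had the smaller log2 changes of 0.39 ± 0.07 and 0.40 ± 0.07. All of these passed the test. In the annotation, 42.9% of the exon bases of Acadvl lie opposite exons of Dvl2, and the strand setting of the counting is not given in the sources used here. Dvl2 itself had 43 to 81 counts per library.

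The trifunctional protein joins hydratase, 3-hydroxyacyl-CoA dehydrogenase and thiolase for long chains, and is built from the products of Hadha and Hadhb. Hadha stood at 321, 346, 359 and 372 CPM in fed WT, 404, 439, 475 and 519.6 in fed KO, 643, 755, 757 and 766 in fasted WT and 783, 769, 752 and 751 in fasted KO. Fed KO lay wholly above fed WT, and both fasted groups lay above both fed groups. Hadhb showed the same order of groups, with 60.7, 70.5, 70.2 and 75.9 CPM in fed WT, 76.8, 78.7, 92.3 and 116 in fed KO, 141, 158, 168 and 157 in fasted WT and 172, 169, 175 and 167 in fasted KO. The fasting changes in WT were 1.06 ± 0.08 (adjusted p = 1.9e-08) for Hadha and 1.17 ± 0.11 (adjusted p = 8.69e-08) for Hadhb, and those in KO were 0.73 and 0.91. The Hadhb level is uncertain, because 61.5% of its 50-base transcript windows also occur in Gm13910, which had 6 to 37 counts per library.

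The genes of this pair lie head to head on chromosome 5, and the windows around their RefSeq start sites overlap by 228 bases (GRCm38.p6, chr5:30155003-30155230). The 85 bases between the annotated exons of the genes (GENCODE M21, chr5:30155163-30155247) are given on the Hadhb strand because both genes moved together in fed KO and in fasting. For comparison, the promoter of Ehhadh, with the largest fasting change of the 31, and those of Cpt1a and Echs1, which rose and did not rise with fasting but share a motif, follow without annotated exon bases. Capitals mark GGGCGG, the letters of a GC box, on either strand for Hadhb and Ehhadh, and AGGTCA, the core letters bound by many nuclear receptors, on either strand for Cpt1a and Echs1.
Hadhb, chr5:30155163-30155247, plus strand: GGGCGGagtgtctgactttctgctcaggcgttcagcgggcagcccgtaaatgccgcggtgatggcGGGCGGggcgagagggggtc
Ehhadh, chr16:21787808-21788084, minus strand: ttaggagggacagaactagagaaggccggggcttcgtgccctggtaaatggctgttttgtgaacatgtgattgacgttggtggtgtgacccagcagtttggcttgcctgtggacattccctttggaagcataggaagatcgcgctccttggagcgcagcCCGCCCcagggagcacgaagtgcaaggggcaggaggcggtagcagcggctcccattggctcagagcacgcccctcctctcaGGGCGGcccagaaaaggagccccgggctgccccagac
Cpt1a, chr19:3323051-3323284, plus strand: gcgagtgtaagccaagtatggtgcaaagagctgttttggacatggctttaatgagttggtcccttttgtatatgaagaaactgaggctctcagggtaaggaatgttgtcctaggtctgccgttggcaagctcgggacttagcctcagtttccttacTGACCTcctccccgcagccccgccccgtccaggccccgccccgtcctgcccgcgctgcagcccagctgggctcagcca
Echs1, chr7:140116477-140116671, minus strand: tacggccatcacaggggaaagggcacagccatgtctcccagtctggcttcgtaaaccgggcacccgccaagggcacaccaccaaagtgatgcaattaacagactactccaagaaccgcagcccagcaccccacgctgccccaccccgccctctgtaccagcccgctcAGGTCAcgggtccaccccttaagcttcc

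RefSeq promoter windows (250 bases before to 50 after the start site) were at hand for 25 of the 31 genes, as 28 windows. The letters AGGTCA stood on either strand in 4 of these windows (14.3%), those of Acadm, Acadvl, Cpt1a and Echs1, and in 16.3% of all 32851 windows. In the Cpt1a window they begin 94 bases before the start site on the opposite strand, and in the Echs1 window 83 bases before it. A direct repeat of AGGTCA with 1 base between the copies, the textbook arrangement for PPAR alpha, was found in 0 of the 28 windows and in 0.0396% of all windows. GGGCGG stood in 19 windows (67.9%) against 35.7% of all windows, and TATAAA in 0 against 13.6%. The windows were not matched for base composition. Median GC was 52.7% over all windows, and most of the 28 windows were richer in GC than that. These letters describe the windows only, and sites outside them were not searched.

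Of the later mitochondrial steps, some genes rose and others did not. Hadh, the short-chain hydroxyacyl-CoA dehydrogenase, rose with fasting by 0.57 ± 0.08 in WT and 0.30 ± 0.08 in KO. Eci1 and Decr1 handle double bonds of unsaturated fatty acids. Eci1 stood at 60.9, 65.7, 71.9 and 68.7 CPM in fed WT, 67.5, 67.1, 68.5 and 71.4 in fed KO, 135, 159.6, 155 and 177 in fasted WT and 149, 142, 135 and 153 in fasted KO. Decr1 stood at 169, 168, 195 and 195 CPM in fed WT, 178, 196, 209 and 248 in fed KO, 381, 405, 442 and 385 in fasted WT and 402, 395, 389 and 348 in fasted KO. All fasted libraries exceeded all fed libraries for both genes, which rose by 1.23 ± 0.08 and 1.15 ± 0.09 in WT and by 1.08 ± 0.08 and 0.89 ± 0.09 in KO. By contrast, 3 genes did not pass the test in either genotype: the short-chain hydratase Echs1 (-0.05 ± 0.06, adjusted p = 0.589, in WT and -0.15 ± 0.06, adjusted p = 0.0556 in KO), the thiolase Acaa2 (0.17 ± 0.09, adjusted p = 0.17, and 0.19 ± 0.09, adjusted p = 0.11) and Etfa (0.16 ± 0.08, adjusted p = 0.125, and -0.01 ± 0.08, adjusted p = 0.908). Echs1 in KO did pass with DESeq2's Wald test (-0.16, adjusted p = 0.0125), DESeq2 size factors (-0.16, adjusted p = 0.0471), library totals (-0.23, adjusted p = 0.00411) and without fasted KO replicate 1 (-0.21, adjusted p = 0.016).

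Electrons from the acyl-CoA dehydrogenases pass to the respiratory chain through the flavoprotein ETF, whose subunits are the products of Etfa and Etfb, and its oxidoreductase Etfdh. Etfdh stood at 277, 290.0, 310.4 and 309 CPM in fed WT, 581, 604, 675 and 574 in fasted WT, 249, 263, 275 and 332 in fed KO and 518, 497, 477 and 465 in fasted KO, and the 4 fasted KO values all lay below the 4 fasted WT values. It rose by 1.04 ± 0.09 (adjusted p = 4.02e-08) in WT and 0.81 ± 0.09 (adjusted p = 9.99e-07) in KO. Etfb rose by 0.68 ± 0.10 (adjusted p = 3.1e-05) in WT and 0.28 ± 0.10 (adjusted p = 0.0287) in KO, and the KO call was lost without any of 4 libraries (fed KO replicate 1 or 4, fasted KO replicate 1 or 3), with an adjusted p of up to 0.111, and with library totals (0.19, adjusted p = 0.138). Exons of the predicted gene Gm45233 and of Mir7051 on the same strand cover 58.2% of the exon bases of Etfb, and Gm45233 was at 0 in every library, so its level is uncertain.

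Ketone synthesis uses the thiolase Acat1 at its first step and Bdh1, which reduces acetoacetate to 3-hydroxybutyrate, at its last. Acat1 stood at 332, 372, 429.6 and 390.5 CPM in fed WT, 393, 452, 396 and 484 in fed KO, 526, 588, 696 and 588 in fasted WT and 645, 598, 664 and 682 in fasted KO. The fasted libraries were higher in both genotypes, by 0.65 ± 0.10 (adjusted p = 3.93e-05) in WT and 0.59 ± 0.10 (adjusted p = 0.000114) in KO, and the genotypes overlapped in each feeding state. Bdh1 stood at 179.6, 163, 198 and 176 CPM in fed WT, 239, 247, 256 and 269 in fed KO, 243, 258, 237 and 307 in fasted WT and 312, 320.5, 304 and 281 in fasted KO. Its fed KO values lay wholly above fed WT and overlapped fasted WT. The fasting change of Bdh1 was 0.54 ± 0.08 (adjusted p = 6.01e-05) in WT and 0.27 ± 0.08 (adjusted p = 0.0157) in KO, and the latter call was lost without fasted KO replicate 1 (0.24, adjusted p = 0.0526) and with library totals (0.19, adjusted p = 0.0987).

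Of the 31 genes, Ehhadh had the largest fasting change in both genotypes. Ehhadh, the bifunctional hydratase and dehydrogenase of the peroxisomal cycle, stood at 228, 194, 252 and 279 CPM in fed WT and 3831, 5380.1, 5892 and 5968 in fasted WT. In KO liver it was 311, 328, 482 and 637 CPM fed and 3928, 4093, 4148 and 3469 fasted. Fed KO lay above fed WT without overlap, while fasted KO overlapped fasted WT only through fasted WT replicate 1. The change with fasting was 4.47 ± 0.23 (adjusted p = 2e-09) in WT and 3.15 ± 0.22 (adjusted p = 4.12e-08) in KO.

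The peroxisomal thiolases come from a pair of close paralogs, Acaa1a and Acaa1b, whose coding sequences of 1272 bases are 96.5% identical. They share 34.0% and 35.5% of their 50-base transcript windows. Reads aligned to several places were tallied on a line apart from the genes. Reads that match both genes may therefore be missing from each level, which leaves both levels uncertain. Acaa1b stood at 347, 246, 453 and 489.8 CPM in fed WT, 375, 415, 464 and 491 in fed KO, 1535, 1906, 1838 and 2024 in fasted WT and 1508, 1477, 1328 and 1183 in fasted KO. The fasted KO values lay below the fasted WT values without overlap, and the fed groups overlapped. Acaa1a stood at 98.6, 95.1, 114 and 118 CPM in fed WT, 93.7, 91.5, 80 and 90.7 in fed KO, 206, 239.8, 208 and 235 in fasted WT and 219, 199.8, 200.4 and 207 in fasted KO, and here the fed KO values lay below fed WT. With fasting, Acaa1b rose by 2.25 ± 0.17 (adjusted p = 4.41e-08) in WT and 1.65 ± 0.17 (adjusted p = 1.28e-06) in KO, and Acaa1a by 1.06 ± 0.08 (adjusted p = 1.22e-08) and 1.21 ± 0.08 (adjusted p = 3.29e-09).

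The other peroxisomal genes rose with fasting in both genotypes. Hsd17b4, the second bifunctional protein, stood at 388, 391, 429 and 441 CPM in fed WT, 477, 451, 532 and 507 in fed KO, 770.4, 894, 934 and 862 in fasted WT and 856, 862, 869.6 and 867 in fasted KO, with changes of 1.07 in WT and 0.81 in KO. Decr2, a peroxisomal dienoyl-CoA reductase, stood at 163, 142, 185 and 175 CPM in fed WT, 127, 135, 135 and 139.6 in fed KO, 327, 324, 316 and 342 in fasted WT and 269, 267, 242 and 229.8 in fasted KO. In both feeding states all 4 Decr2 values of KO lay below all 4 of WT. Crot, which makes carnitine esters for export from the peroxisome, rose by 0.64 ± 0.09 (adjusted p = 3.28e-05) in WT and 0.33 ± 0.09 (adjusted p = 0.00934) in KO. Pex11a, a membrane protein of peroxisome division, rose by 1.36 ± 0.14 in WT and 1.36 ± 0.14 in KO, from 56.1, 73.9, 81 and 80 CPM in fed WT to 151, 198, 205 and 191 in fasted WT, and from 51.1, 50.3, 59.9 and 77.9 in fed KO to 142, 163, 157 and 153 in fasted KO. Abcd3, which carries acyl-CoA into the peroxisome, rose by 0.71 ± 0.08 and 0.66 ± 0.08.

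Abcd2, a second peroxisomal acyl-CoA carrier, had the lowest level of the 31 genes per kilobase of exon in every group. It stood at 8.58, 4.12, 5.98 and 5.3 CPM in fed WT, 9.87, 19.5, 14.5 and 21.7 in fed KO, 18.7, 12.2, 12.5 and 20.4 in fasted WT and 38.3, 31.2, 34.2 and 23.9 in fasted KO. KO lay above WT without overlap in both feeding states, and fed KO covered much the same range as fasted WT. The log2 change with fasting was 1.42 ± 0.29 (adjusted p = 0.00154) in WT and 0.96 ± 0.26 (adjusted p = 0.00895) in KO.

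Of the genes in both compartments or elsewhere, Crat, the carnitine acetyltransferase, stood at 29.3, 27.1, 44 and 52.6 CPM in fed WT, 41.2, 63.6, 72.5 and 75.2 in fed KO, 151, 204, 217 and 218 in fasted WT and 287, 263, 262 and 285 in fasted KO, and rose with fasting by 2.37 ± 0.22 (adjusted p = 1.96e-06) in WT and 2.12 ± 0.22 (adjusted p = 5.27e-06) in KO. Its fasted KO values all lay above those of fasted WT. Acsl1, which activates long-chain fatty acids, stood at 949.6, 885, 1133 and 1197 CPM in fed WT, 967, 967, 933 and 1128 in fed KO, 2809, 2654, 3065 and 2809 in fasted WT and 2254, 2253, 2092 and 1809.6 in fasted KO. Here fasted KO lay wholly below fasted WT. Acsl1 rose with fasting by 1.44 ± 0.10 in WT and 1.07 ± 0.10 in KO, and Eci2, an isomerase, by 0.78 ± 0.12 and 0.52 ± 0.12. Acsm3, a medium-chain acyl-CoA synthetase of mitochondria, rose by 0.36 ± 0.08 (adjusted p = 0.00256) in WT and 0.53 ± 0.08 (adjusted p = 6.38e-05) in KO. Exons of Eri2 (115 to 263 counts per library) lie opposite 39.7% of the exon bases of Acsm3.

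**Figure D2:**
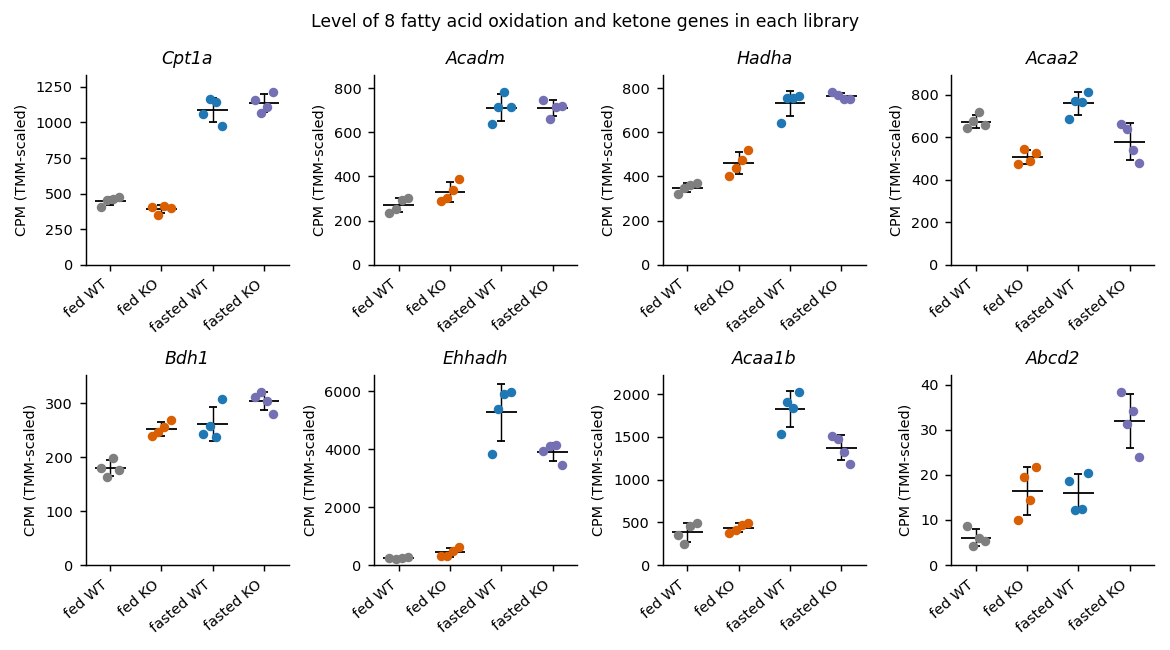
CPM in each of the 16 libraries (points) for 8 of the genes, with the group mean (horizontal line) and SD (vertical bar) and an axis from 0 for each gene. Of these 8, Ehhadh and Acaa1b had the largest log2 changes with fasting, and Abcd2 is higher in KO in both feeding states.

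In KO liver the fasting response covered the same genes. The comparison of fasted with fed KO, which shares no library with that in WT, called 28 genes higher and 0 lower, against 21.1% higher and 20.3% lower of all genes tested. These were the same 28 genes as in WT. Groups did not overlap for 28 of the 31 genes, against 38.2% of all genes. The median log2 fold change was 0.59 over the mitochondrial genes and 0.96 over the peroxisomal genes, beside 0.00 over all genes tested. Of the 28 calls, 26 held under every alternative apart from library totals and the stricter threshold, and the exceptions were Etfb and Bdh1.

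**Figure D3:**
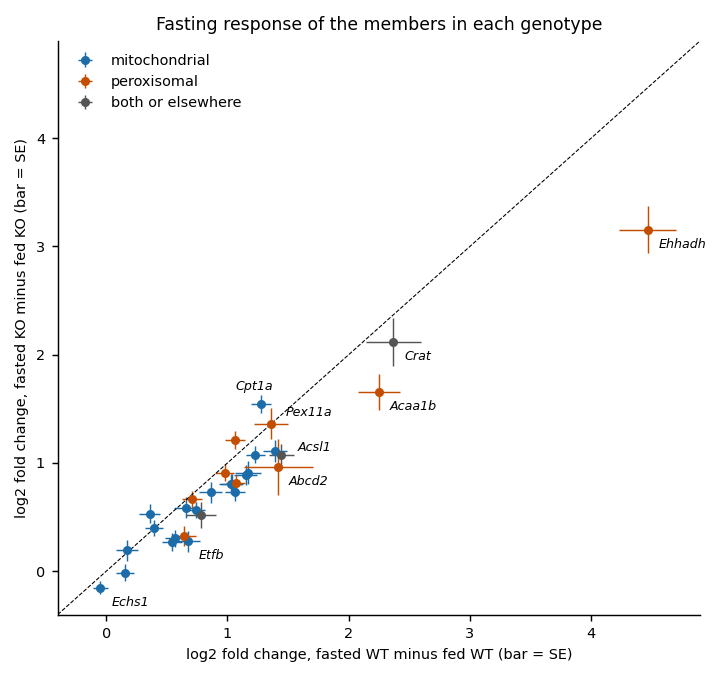
Log2 fold change with fasting in KO (vertical axis) against that in WT (horizontal axis) for the 31 genes, coloured by compartment, with standard errors as bars and a dashed line of equal change. Ehhadh lies below the line at 4.47 in WT and 3.15 in KO.

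Whether the fasting response differed between genotypes was tested as the difference of the genotype effects, fasted minus fed. Of the 31 genes, 0 were called higher and 1 lower, against 1.07% and 0.633% of all genes tested. The gene called was Ehhadh, with -1.31 ± 0.29 (adjusted p = 0.0344). Fed KO minus fed WT was 0.88 ± 0.20 (adjusted p = 0.00418), and after the fast the same difference was -0.43 ± 0.20 (adjusted p = 0.125). The fasted difference did pass with only the 8 fasted libraries (-0.43, adjusted p = 0.0283) and without fed KO replicate 4 (-0.43, adjusted p = 0.0492). This interaction call is not firm. It was lost without the filter on low counts (adjusted p = 0.0889), without fasted WT replicates 2 and 4 together (adjusted p = 0.116) and without any 1 of 11 libraries (fed WT replicate 1, 2 or 3, fed KO replicate 3, fasted WT replicate 2, 3 or 4, or any fasted KO replicate; adjusted p = 0.050 to 0.0764), while its size stayed between -1.08 and -1.45. For Acaa1b the same term was -0.60 ± 0.23 (adjusted p = 0.211), for Hadha -0.33 ± 0.12 (adjusted p = 0.164) and for Cpt1a 0.26 ± 0.12 (adjusted p = 0.251), none past the threshold.

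In the fed state, KO liver held more of some of these transcripts and less of others. Of the 31 genes, 11 were higher and 4 lower in fed KO than in fed WT, against 14% higher and 16.9% lower of all genes tested. The higher genes were Acadl, Acadm, Hadha, Hadhb, Etfb and Bdh1 of mitochondria, Ehhadh, Hsd17b4, Crot and Abcd2 of peroxisomes, and Crat. The lower genes were Acaa2 and Acsm3 of mitochondria and Acaa1a and Decr2 of peroxisomes. The median difference was 0.05 over the 19 mitochondrial and 0.19 over the 9 peroxisomal genes, beside -0.01 over all genes. With 1 library left out these medians ranged from 0.0059 to 0.11 and from 0.021 to 0.29, and with library totals they were 0.27 and 0.40. Groups did not overlap for 11 of the 31 genes, against 28.4% of all genes.

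Abcd2 and Ehhadh had the largest fed differences, 1.46 ± 0.28 (adjusted p = 0.00164) and 0.88 ± 0.20 on the log2 scale. Crat followed with 0.72 ± 0.22 (adjusted p = 0.022). Among mitochondrial genes the ketone enzyme Bdh1 stood first at 0.49 ± 0.08 (adjusted p = 0.000248), with Hadha at 0.39 ± 0.08 (adjusted p = 0.00157) and Hadhb at 0.39 ± 0.10 (adjusted p = 0.00853). The remaining higher calls were smaller, with Crot at 0.29 ± 0.09 (adjusted p = 0.0277), Acadm at 0.28 ± 0.10 (adjusted p = 0.0403), Etfb at 0.26 ± 0.10 (adjusted p = 0.0492), Acadl at 0.25 ± 0.09 (adjusted p = 0.0479) and Hsd17b4 at 0.25 ± 0.08 (adjusted p = 0.0172). Cpt1a, at -0.20 ± 0.08 (adjusted p = 0.0732), was not called, nor were Acat1 (0.18 ± 0.10, adjusted p = 0.176) and Acaa1b (0.19 ± 0.17, adjusted p = 0.42). Cpt1a did pass without fed WT replicate 1 (-0.25, adjusted p = 0.0401) and Acat1 with library totals (0.40, adjusted p = 0.00256). Hadh, not called either, passed under several alternatives, with 0.21 (adjusted p = 0.0247) in the DESeq2 Wald test. Decr1 passed without fed KO replicate 1 (0.26, adjusted p = 0.0487). Pex11a, also uncalled, passed as lower with the replicate block (-0.28, adjusted p = 0.0402) and without fed WT replicate 1 or fed KO replicate 4.

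Acaa2, a mitochondrial thiolase, stood at 645, 675, 719 and 657 CPM in fed WT and 473, 546, 486 and 525 in fed KO, and at 685, 771, 768 and 814 in fasted WT and 661, 639, 540.3 and 478 in fasted KO. Every KO value lay below every WT value of the same feeding state, with differences of -0.41 ± 0.09 (adjusted p = 0.00302) fed and -0.39 ± 0.09 (adjusted p = 0.00437) fasted. Acsm3 stood at 116, 138, 143 and 131 CPM in fed WT and 103, 94.9, 83.5 and 99.2 in fed KO, and at 178, 164, 182 and 153 in fasted WT and 152, 128, 139 and 132 in fasted KO, again without overlap. Its differences were -0.47 ± 0.08 (adjusted p = 0.000356) fed and -0.30 ± 0.08 (adjusted p = 0.0121) fasted. Decr2 differed by -0.31 ± 0.08 (adjusted p = 0.006) fed and -0.38 ± 0.08 (adjusted p = 0.00135) fasted, and Acaa1a by -0.26 ± 0.08 (adjusted p = 0.0204) fed and -0.11 ± 0.08 (adjusted p = 0.35) fasted.

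Which fed genes were called depended on single libraries and on scaling. The count of higher genes was 5 without fed WT replicate 1, 5 without fed WT replicate 2, 5 without fed KO replicate 3 and 7 without fed KO replicate 4. Hadha, Hadhb, Bdh1, Ehhadh and Abcd2, and of the lower genes Acaa2, Acsm3 and Decr2, held under every alternative apart from library totals and the stricter threshold. With library totals in place of TMM, the median of all genes was 0.21 and the split became 20 higher and 1 lower. All 11 higher calls held on that scale, and of the 4 lower calls only Acsm3 did. The call of Acadl was lost under 16 of 23 alternatives, at 0.13 (adjusted p = 0.214) without fed KO replicate 4. Those of Acadm, Etfb, Hsd17b4, Crot and Crat were also lost under some alternatives, with adjusted p of up to 0.153, 0.142, 0.0655, 0.0918 and 0.0724 in that order. The call of Acaa1a was lost without fed WT replicate 3 or 4, without fed KO replicate 3 and with only the 8 fed libraries, with an adjusted p of up to 0.0818.

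After the fast most of the genotype calls were in the lower direction with TMM scaling, but not with library totals. In fasted KO against fasted WT, 1 of the 31 genes was higher and 6 were lower, against 13.8% higher and 14.5% lower of all genes tested. The higher gene was Abcd2, at 1.0 ± 0.26 (adjusted p = 0.0112). The lower genes were Acaa2, Acsm3 and Decr2, already given, with Acsl1 at -0.43 ± 0.10 (adjusted p = 0.00355), Etfdh at -0.31 ± 0.09 (adjusted p = 0.0106) and Acadvl at -0.21 ± 0.07 (adjusted p = 0.0414). The median difference was -0.08 over the mitochondrial and -0.11 over the peroxisomal genes, beside 0.01 over all genes. With 1 library left out they ranged from -0.13 to -0.052 and from -0.16 to -0.067, without fasted WT replicates 2 and 4 the mitochondrial median was 0.00027, and with library totals the medians turned to 0.10 and 0.079. Groups did not overlap for 9 of 31 genes against 29.5% of all genes. Bdh1 (0.22 ± 0.08, adjusted p = 0.0588), Crat (0.47 ± 0.21, adjusted p = 0.114) and Acaa1b (-0.41 ± 0.17, adjusted p = 0.0744) did not pass the test. Bdh1 did pass without fasted WT replicate 4 (0.31, adjusted p = 0.00808), without fasted WT replicates 2 and 4 (0.34, adjusted p = 0.0135), without fasted KO replicate 4 (0.26, adjusted p = 0.047) and with library totals (0.40, adjusted p = 0.00164). Crat passed with only the 8 fasted libraries (0.47, adjusted p = 0.0062), with the replicate block (0.50, adjusted p = 0.027) and with library totals (0.66, adjusted p = 0.0258). Acaa1b passed with DESeq2's Wald test (-0.43, adjusted p = 0.0372), with only the 8 fasted libraries (-0.41, adjusted p = 0.0138) and without fed WT replicate 2 (-0.41, adjusted p = 0.0148).

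The fasted calls of Etfdh, Acsm3, Decr2, Acsl1 and Abcd2 held under every alternative apart from library totals and the stricter threshold. That of Acaa2 was lost when fasted WT replicates 2 and 4 were left out (adjusted p = 0.0572), and that of Acadvl under 12 of 23 alternatives, with an adjusted p of up to 0.263. With library totals, where the median of all genes was 0.20, the split was 7 higher and 1 lower, and of the 6 lower calls only Acsl1 held.

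The fed and fasted genotype comparisons share no library. Abcd2 was higher in both, and Acaa2, Acsm3 and Decr2 were lower in both. Of all genes tested, 7.34% were higher and 8.75% lower in both. The fed calls of the other 10 higher genes had fasted differences between -0.43 (Ehhadh) and 0.47 (Crat), none of them past the threshold, and apart from Ehhadh the change of the difference with feeding state was not past the threshold for any of them.

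Markers of hepatic stellate cells and of hepatocytes moved with genotype. Of 10 hepatic stellate cell markers, 8 were higher and 0 lower in fed KO, and their sum was 422 to 511 CPM in fed WT against 639 to 706 in fed KO. After the fast 5 were higher and 0 lower, with sums of 446 to 496 CPM in fasted WT and 580.3 to 649 in fasted KO. Of 10 hepatocyte markers, 1 was higher and 6 lower in fed KO, with sums of 144397 to 154923 CPM in fed WT and 105491 to 140650 in fed KO. Fasted KO had 1 higher and 5 lower, with sums of 109936 to 154791 CPM in fasted WT and 129816 to 149715 in fasted KO. No stellate or hepatocyte marker was at 0 in any library. Of all genes tested, 14% were higher and 16.9% lower in fed KO, and 13.8% and 14.5% in fasted KO. Among endothelial, bile duct and lymphocyte markers, 0 were called in either state. Of 8 macrophage markers 1 was higher, and of 5 red blood cell markers 1 was lower, in each state. In fasted KO 4 pancreatic acinar markers and 1 adipocyte marker were also lower. The part of these cells in the genotype differences was not tested.

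Summed over genes, reads in the 9 peroxisomal genes exceeded those in the 19 mitochondrial genes in every fasted library. In every fed library they were fewer. Without Ehhadh they were fewer in the fasted libraries too, as given below. Which sum was larger in a fasted library also depended on the placement of Eci2, Crat and Acsl1. The 19 mitochondrial genes made up 0.431 ± 0.0323% of gene reads (SD, n = 4) in fed WT, 0.515 ± 0.0229% in fed KO, 0.720 ± 0.0417% in fasted WT and 0.785 ± 0.00402% in fasted KO. The 9 peroxisomal genes made up 0.283 ± 0.0365% in fed WT, 0.386 ± 0.0392% in fed KO, 1.03 ± 0.124% in fasted WT and 0.971 ± 0.0595% in fasted KO. These are shares of the unscaled library, so they stand closer to the library totals scale than to CPM.

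The ratio of peroxisomal to mitochondrial reads does not depend on scaling. It was 0.586 to 0.696 in the fed WT libraries, 0.699 to 0.791 in fed KO, 1.28 to 1.54 in fasted WT and 1.14 to 1.31 in fasted KO. Fed KO lay above fed WT without overlap, and the fasted groups overlapped, fasted WT replicate 1 having the lowest WT ratio. Without fasted WT replicates 2 and 4, the WT ratios were 1.28 and 1.46. With Ehhadh left out of the sum, the group means were 0.602 ± 0.0415 in fed WT, 0.656 ± 0.0247 in fed KO, 0.761 ± 0.00969 in fasted WT and 0.717 ± 0.0362 in fasted KO. With both Ehhadh and Acaa1b left out, they were 0.518 ± 0.0216, 0.562 ± 0.0205, 0.529 ± 0.0128 and 0.535 ± 0.0273 in the same order, and all 4 groups then stood between 0.486 and 0.588. With Ehhadh alone left out, the ratio was at most 0.775 in any library, so mitochondrial reads then exceeded peroxisomal ones throughout. In that setting the fed groups overlapped, at 0.542 to 0.637 in WT and 0.628 to 0.687 in KO. With both genes left out the fed groups did not overlap, at 0.486 to 0.533 in WT and 0.537 to 0.588 in KO. Leaving these genes out was chosen after their values were seen.

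**Figure D4:**
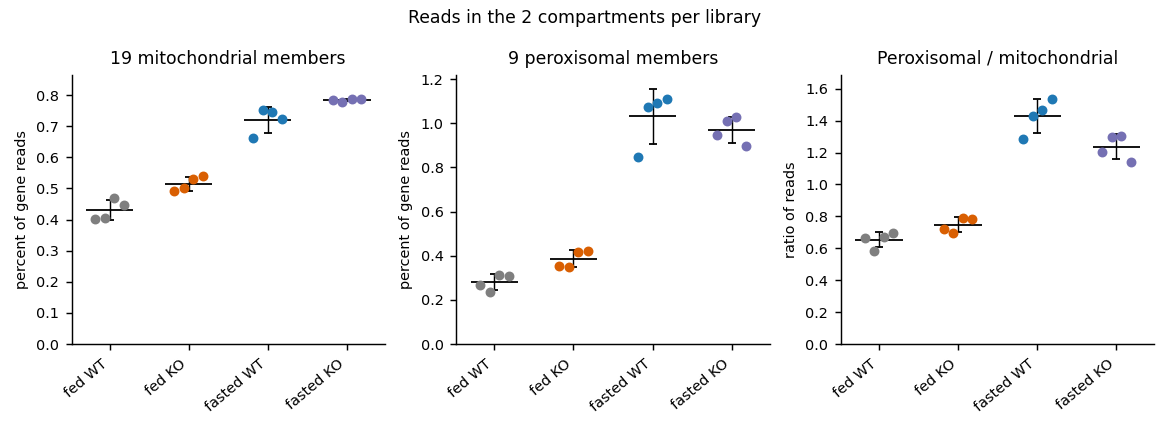
Percent of gene reads in the 19 mitochondrial and in the 9 peroxisomal genes, and the ratio of the latter to the former, in each of the 16 libraries (points), with the group mean (horizontal line) and SD (vertical bar) on axes starting at 0. All fasted libraries have a ratio above 1 and all fed libraries one below 1.

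Levels between genes were compared as CPM per kilobase of annotated exon. This length joins the exons of all transcripts of a gene. It was 10483 bases for Acsl1 and 5456 for Crot, whose longest coding transcripts have 3897 and 2996. For Ehhadh both lengths were 2981. Places between genes therefore depend on this length, and no other was tried. That of Acaa1b is also uncertain, since reads that match both it and Acaa1a may be missing. In fed WT the highest were Acaa2 at 444.6 ± 21.5, Acaa1b at 196 ± 56.0 and Crot at 179.6 ± 19.8 (SD, n = 4), the last pair with overlapping libraries. In fasted WT they were Ehhadh at 1767 ± 333, Acaa1b at 931 ± 106 and Acaa2 at 501 ± 35.7, and these 3 did not overlap. Fasted KO gave the same order, with 1311 ± 103, 700.3 ± 76.2 and 383 ± 56.5. Ehhadh thus went from place 11 of the 31 genes in fed WT, with 80.0 ± 12.1 CPM per kilobase, to place 1. In fed KO it held place 5, with 147 ± 51.2. Abcd2, in last place, ran from 1.01 ± 0.317 in fed WT to 5.37 ± 1.02 in fasted KO.

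Other genes of the pathway and its regulators were taken from lists written with earlier results of these data known. Ppara, the receptor itself, stood at 68.2, 88.9, 87.7 and 106 CPM in fed WT and 50.7, 53.9, 56.7 and 27.8 in fed KO, and at 122, 132, 131 and 142 in fasted WT and 118, 122, 114 and 103 in fasted KO. KO lay wholly below WT in both feeding states, by a smaller margin after the fast. For Ppara the difference of the genotype effects, fasted minus fed, was not past the threshold. The differences were -0.89 ± 0.17 (adjusted p = 0.00142) fed and -0.21 ± 0.17 (adjusted p = 0.39) fasted, and fasting raised Ppara by 0.59 ± 0.17 (adjusted p = 0.015) in WT and 1.27 ± 0.17 (adjusted p = 4.47e-05) in KO. The WT fasting call was lost under some alternatives, with an adjusted p of up to 0.095.

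Of 18 further PPAR alpha target genes tested, 8 were higher and 2 lower in fed KO, against 14% and 16.9% of all genes tested, with a median log2 difference of 0.53. After the fast 4 were higher and 0 lower, against 13.8% and 14.5%, with a median of -0.04. Scaling by library totals gave 11 higher and 1 lower in fed KO (median 0.74), and 5 higher and 0 lower in fasted KO (median 0.14). The fed differences included Cyp4a14, a fatty acid omega-hydroxylase, at 5.02 ± 0.61 (adjusted p = 7.07e-05), Cyp4a31 at 3.11 ± 0.35 (adjusted p = 3.47e-05), the hormone gene Fgf21 at 3.62 ± 0.41 (adjusted p = 3.98e-05) and the mitochondrial thioesterase Acot2 at 3.37 ± 0.41 (adjusted p = 6.65e-05). The fatty acid binding protein Fabp1 was lower, at -0.85 ± 0.10 (adjusted p = 4.72e-06). In the fasted state Fgf21 stood at 3.57 ± 0.37 (adjusted p = 2.19e-05) and Acot2 at 2.25 ± 0.32 (adjusted p = 0.000211).

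Of 18 further mitochondrial genes, 0 were higher and 7 lower in fed KO (median -0.08), and 0 were higher and 8 lower in fasted KO (median -0.16), against the same shares of all genes. On the library totals scale 5 were higher and 3 lower fed (median 0.14), and 2 higher and 4 lower fasted (median 0.022). The lower genes included Hsd17b10, a hydroxyacyl-CoA dehydrogenase of branched-chain and short-chain acids, at -0.45 ± 0.06 (adjusted p = 2.24e-05) fed and -0.70 ± 0.06 (adjusted p = 1.57e-07) fasted, and the branched-chain dehydrogenase Acad8 at -0.48 ± 0.07 (adjusted p = 0.000107) and -0.44 ± 0.07 (adjusted p = 0.000213). Of 29 further peroxisomal genes, 2 were higher and 14 lower in fed KO (median -0.22), and 3 were higher and 9 lower in fasted KO (median -0.16). With library totals these became 7 higher and 6 lower fed (median 0.0011) and 10 higher and 4 lower fasted (median 0.021). Pecr, an enoyl-CoA reductase, stood at -0.67 ± 0.09 (adjusted p = 1.31e-05) fed and -0.92 ± 0.09 (adjusted p = 4.63e-07) fasted, catalase (Cat) at -0.44 ± 0.07 (adjusted p = 0.00013) and -0.40 ± 0.07 (adjusted p = 0.000278), and Acsl4, an acyl-CoA synthetase of polyunsaturated fatty acids, at 0.87 ± 0.13 (adjusted p = 0.000151) and 1.39 ± 0.14 (adjusted p = 1.77e-06). Of 14 regulators, 1 was higher and 4 lower in fed KO, with Acacb, whose product makes the malonyl-CoA that restrains Cpt1a, at -0.94 ± 0.17 (adjusted p = 0.000769), Creb3l3 at -0.50 ± 0.09 (adjusted p = 0.000255) and Prkaa2, a catalytic subunit of AMP-activated kinase, at 0.56 ± 0.09 (adjusted p = 0.000107). In fasted KO 1 was higher and 3 lower, with Mlycd, which breaks down malonyl-CoA, at 0.48 ± 0.09 (adjusted p = 0.000398) and Ppargc1a at -0.87 ± 0.28 (adjusted p = 0.0321). With library totals, 3 regulators were higher and 3 lower in fed KO, and 5 higher and 0 lower in fasted KO. The Ppargc1a call was lost under several alternatives, including the fits without fasted WT replicate 1, 2 or 4 or fasted KO replicate 3 or 4.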

How the data were processed

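Polyadenylated RNA of 16 liver samples was read from stranded libraries, as the labels' protocols state. The values are counts in a deposited table, whole numbers of reads per gene that the authors made without normalization. The submitters' processing notes name HTSeq 0.9.1, STAR 2.5.3a, cutadapt 1.8 and the build GRCm38. The counting's strand setting and its annotation were not given in the sources used here. Lines that name no gene were left out. Reads aligned to several places made up 40.4% to 45.8% of counts in WT libraries and 32.0% to 39.3% in KO libraries. These ranges did not overlap, and their part in the genotype results was not tested. A further 2.98% to 4.29% of counts had no gene and 1.05% to 1.65% were ambiguous. Libraries of a group differed by 6.79 to 91.7 times the counting variance (24 pairs), so none was counted as a duplicate.

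Counts were filtered with filterByExpr, scaled by TMM and fitted with edgeR 4.0.16 (R 4.3.3) in a single model of all 16 libraries with a coefficient per group; the quasi-likelihood F test with robust estimation gave log2 fold changes, their standard errors (fold change over the square root of F) and p adjusted by Benjamini-Hochberg over 13905 genes, with a threshold of 0.05. The common biological coefficient of variation was 0.138. The fit was first tested on simulated data in which 200 genes were changed. Positions, exon lengths and overlaps came from GENCODE M21, promoter windows from RefSeq (GRCm38.p6).

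The 31 genes, the 77 further genes listed (76 found, Mmut not matched) and the markers were chosen with earlier results of these data known, so no p over a list is given. All 31 are described; values per library are given for those past an absolute log2 change of 0.8, those whose genotype effect differed between feeding states, and Cpt1a, Acadm, Hadha, Acaa1a, Acaa1b, Ehhadh, Bdh1 and Acat1. Of the further genes, up to 5 per class and comparison with the smallest p, and Ppara, could be named; some further genes that this rule covers are not reported here.

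Alternatives were DESeq2 1.42.0 size factors, its Wald test, library totals, no filter, no robust estimation, the replicate block, only the 8 libraries compared, adjusted p under 0.01, without fasted WT replicates 2 and 4, and each library left out in turn. Leaving Ehhadh and Acaa1b out of the sums, placing Eci2, Crat and Acsl1 in a compartment, counting the further genes with library totals and giving the ratio without fasted WT replicates 2 and 4 were chosen after seeing the data.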

Additional observations from a re-analysis of the deposited data

Results flagged for a closer look

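In 2 of 140 checks of a group of 4 libraries, 1 library stood far from the other 3, where chance alone marks about 1 in 20 groups. Cpt2 was at 241.8 CPM in fasted WT replicate 1 against 297.5 to 305.2 in the other fasted WT libraries. Hadha was at 643 CPM in the same library against 755 to 766 in the others. That library also had the lowest Ehhadh and Acaa1b levels of its group.

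The genotype effect differed between fasted and fed liver (fasted minus fed, log2, edgeR quasi-likelihood test) for 1 of the 31 genes, Ehhadh, at -1.31 ± 0.29 (adjusted p = 0.0344). Further genes with such a difference follow. Cyp4a14 stood at -5.05 ± 0.77 (adjusted p = 0.0116), Cyp4a10 at -2.77 ± 0.53 (adjusted p = 0.0244) and Cyp4a31 at -2.14 ± 0.46 (adjusted p = 0.0394). Prkaa2, a subunit of AMP-activated kinase, stood at -0.49 ± 0.12 (adjusted p = 0.0469). Positive differences were seen for Fabp1 at 0.61 ± 0.14 (adjusted p = 0.0337), Amacr, a peroxisomal and mitochondrial racemase, at 0.48 ± 0.10 (adjusted p = 0.0222), and Acadsb at 0.38 ± 0.09 (adjusted p = 0.0422). Of these 8 calls only that of Cyp4a14 held under every alternative apart from the stricter threshold.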

How the results depend on the processing

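Over the 31 genes and 5 contrasts, 3844 values were recomputed under an alternative. Of these, 3693 kept their side of the threshold, 108 lost the call, 42 gained one and 1 reversed. A reversal was counted only for a gene called in at least 1 of the fits compared. Changes of direction in genes called in neither fit were not counted. Library totals moved most: they gave 20 higher and 1 lower in fed KO, with medians of 0.27 (mitochondrial) and 0.40 (peroxisomal), and 7 higher and 1 lower in fasted KO, with medians of 0.10 and 0.079. On that scale Echs1 in fed KO reversed to 0.20 (adjusted p = 0.0111) and Pccb in fasted KO to 0.0091. At an adjusted p under 0.01, 5 genes were higher in fed KO, 0 higher and 3 lower in fasted KO and 0 lower for the difference of genotype effects. Echs1 gave 1 lower gene for fasting in KO with DESeq2 size factors, the Wald test or library totals. Only the 8 libraries compared gave 2 higher genes in fasted KO (Abcd2 and Crat), and so did the fit without fasted WT replicates 2 and 4 (Abcd2 and Bdh1), where the mitochondrial median was 0.00027. That fit, and the fit without a filter, called 0 genes for the difference of genotype effects. The causes were not tested.

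With 1 library left out, higher and lower genes ranged from 5 to 13 and 3 to 6 in fed KO, 1 to 2 and 5 to 7 in fasted KO, 28 to 28 and 0 to 0 for fasting in WT, 26 to 29 and 0 to 1 for fasting in KO (1 without fasted KO replicate 1), and 0 to 0 and 0 to 1 for the difference of genotype effects. The peroxisomal median ranged from 0.021 (without fed WT replicate 2) to 0.29 in fed KO and from 0.86 to 1.12 for fasting in KO (1.12 without fed KO replicate 4, 1.08 without fasted KO replicate 4).

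With the replicate block, 10 genes were higher and 5 lower in fed KO, 2 higher (Abcd2 and Crat) and 5 lower in fasted KO, 28 higher and 0 lower for fasting in each genotype, and 0 higher and 1 lower for the difference of genotype effects. Most same-numbered libraries did not deviate together (correlations -0.09 to 0.33, over 0.1 in 4 of 16 pairs), so the numbers were not taken to pair the samples. The highest correlation was that of replicate 3 in the fasted groups.

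Placing Acsl1 in mitochondria and Eci2 and Crat in peroxisomes raised the mitochondrial share to 0.529% in fed WT, 0.625% in fed KO, 0.980% in fasted WT and 1.004% in fasted KO, and the peroxisomal share to 0.304%, 0.415%, 1.08% and 1.03%. With this placement the mitochondrial and peroxisomal shares of fasted KO lay close together. The peroxisomal share then no longer exceeded the mitochondrial share in every fasted library. The exceptions were fasted WT replicate 1, fasted KO replicate 1 and fasted KO replicate 4. Depth limits little here except for Abcd2, at 4.12 CPM or above.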

Other observations

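Some further genes of acyl-CoA metabolism moved against the general rise with fasting. Of 18 mitochondrial genes outside the 31, 8 rose and 5 fell in WT and 8 rose and 3 fell in KO. The medium-chain synthetase Acsm1 fell, with -0.67 ± 0.11 (adjusted p = 9.93e-05) in WT and -0.97 ± 0.11 (adjusted p = 1.72e-06) in KO, as did Acadsb, a branched-chain acyl-CoA dehydrogenase, with -0.59 ± 0.06 (adjusted p = 1.11e-06) and -0.21 ± 0.06 (adjusted p = 0.0125). Hsd17b10 had the largest rise among those with the smallest p, 1.79 ± 0.06 (adjusted p = 5.25e-13) in WT and 1.54 ± 0.06 (adjusted p = 7.78e-12) in KO. Of 29 further peroxisomal genes, 13 rose and 6 fell in WT and 14 rose and 2 fell in KO. The assembly factors Pex16 and Pex19 rose by 0.86 ± 0.09 and 0.86 ± 0.07 in WT and by 1.06 ± 0.09 and 0.91 ± 0.07 in KO, while Pecr fell in both, with -0.36 ± 0.08 (adjusted p = 0.00302) in WT and -0.61 ± 0.09 (adjusted p = 1.85e-05) in KO. Among the PPAR alpha targets, 14 of 18 rose and 0 fell in WT and 15 rose and 1 fell in KO. Of all genes tested, 16.2% rose and 18.3% fell in WT, and 21.1% rose and 20.3% fell in KO. The lipid droplet gene Cidec rose by 5.98 ± 0.26 (adjusted p = 7.82e-10) in WT and 6.40 ± 0.26 (adjusted p = 3.57e-10) in KO.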
